A study of Mus musculus with 5 samples.

Results

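The methylome described here is that of wild-type LSK cells, measured in the 3 of the 5 libraries whose titles mark them as wild type. Its members are the autosomal CpGs, chromosomes 1 to 19, that reached a coverage of at least 10 reads in each of the 3 tables, with the 2 strands of a CpG merged. This gave 1038775 CpGs of the 1161278 that at least 1 wild-type table lists, or 89.5%. LSK cells are the Lin- Sca1+ cKit+ fraction of mouse bone marrow, which holds the blood stem cells and the multipotent progenitors. The wild-type mice carried no named allele or agent and were of the C57BL/6 strain, and cells were sorted after lysis of red blood cells. No age is given for these libraries, and the labels do not say whether the 3 came from separate animals, so the spread between them may be technical. DNA of a sorted fraction carries no expressed markers, and the labelled cell type could not be checked against markers here. No contrast with the other libraries of the series was made.

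In mammals most CpGs carry a methyl group on cytosine, placed by the DNA methyltransferases and copied to the new strand at each division. CpG-dense stretches, the CpG islands, are the main exception: they lie at the starts of most genes that are active in many tissues and of many regulators of development, and are usually unmethylated in all of them. Promoters of some germ cell genes are methylated in body cells, and the promoters of imprinted genes can be methylated on the copy from 1 parent only. A level between the extremes can therefore mean that alleles or cells differ.

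Enhanced reduced representation bisulfite sequencing (ERRBS) reads CpGs near the sites of MspI, an enzyme that cuts at CCGG. After bisulfite treatment an unmethylated cytosine appears as T, so the level of a CpG is the percent of its reads that carry C. The autosomal entries of the tables summed to 137700988, 144383772 and 126337474 counts of coverage in wild-type libraries 1, 2 and 3. The median member CpG was covered by 105, 110 and 103 reads. Depth differed by level: unmethylated CpGs (mean level under 20%) had a median of 132, 137 and 122 reads, and methylated CpGs (over 80%) had 66, 72 and 75. Of the members, 270300 (26.0%) were measured on both strands and 768475 on 1 strand. The next measured CpG lay a median of 13 bp away, and 77.4% of members had it within 50 bp.

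To show what the levels stand for in sequence, the 250 bases before the start of 3 genes are given, 1 gene for each class of level. They were chosen after their values were seen. Letters are from RefSeq (GRCm38.p6), 5′ to 3′ on the gene's strand, positions are in mm9, and the CGs in capitals are those measured in all 3 libraries. Runx1, a transcription factor needed to form blood stem cells, stands for the unmethylated class (chr16:92697575-92697824, minus strand). Plagl1, an imprinted zinc finger gene, stands for the intermediate class (chr10:12810388-12810637, plus strand). Ddx4, an RNA helicase of germ cells, stands for the methylated class (chr13:113442519-113442768, minus strand).
Runx1: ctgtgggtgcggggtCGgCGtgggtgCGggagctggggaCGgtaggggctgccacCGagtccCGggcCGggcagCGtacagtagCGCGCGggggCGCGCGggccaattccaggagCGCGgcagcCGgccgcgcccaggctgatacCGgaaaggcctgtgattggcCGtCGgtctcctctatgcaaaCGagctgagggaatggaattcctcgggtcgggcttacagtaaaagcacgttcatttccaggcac
Plagl1: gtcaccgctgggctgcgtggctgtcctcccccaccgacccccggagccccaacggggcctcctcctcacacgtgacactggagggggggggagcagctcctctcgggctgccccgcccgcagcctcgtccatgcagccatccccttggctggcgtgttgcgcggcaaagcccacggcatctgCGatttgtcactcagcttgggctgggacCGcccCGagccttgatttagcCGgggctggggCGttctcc
Ddx4: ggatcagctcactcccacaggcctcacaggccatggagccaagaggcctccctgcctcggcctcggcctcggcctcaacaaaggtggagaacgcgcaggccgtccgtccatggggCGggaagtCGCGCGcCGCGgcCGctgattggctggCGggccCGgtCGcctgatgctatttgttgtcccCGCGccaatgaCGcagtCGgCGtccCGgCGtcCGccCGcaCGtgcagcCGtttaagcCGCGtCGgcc
Capitals mark 21 of the 27 CGs of the Runx1 stretch, 5 of 19 for Plagl1 and 24 of 31 for Ddx4. The windows behind the levels are these bases plus the first 50 of the gene, with 29, 12 and 27 measured CpGs. Their mean level in libraries 1, 2 and 3 was 0.119%, 0.133% and 0.0193% for Runx1, 28.3%, 31.6% and 34.3% for Plagl1, and 91.6%, 91.6% and 91.9% for Ddx4. Since the genes were picked by class, the distance between them is no finding; Plagl1 is the one whose libraries differed by several points.

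Wild-type LSK methylation was bimodal at the CpGs that the assay covers. The mean level over members was 34.4% in library 1, 34.2% in library 2 and 34.2% in library 3, with an average of 34.3% ± 0.0609 (SD, n = 3). The median was near 1% in every library (1.05%, 0.985% and 0.995%), because most covered CpGs were unmethylated. CpGs under 20% made up 61.2% ± 0.0226 (SD, n = 3) of the members, and CpGs over 80% made up 31.7% ± 0.0628 (SD, n = 3). The intermediate class, from 20 to 80%, held 7.12%, 7.16% and 7.06% in libraries 1 to 3. Taking the mean of the 3 libraries for each CpG, 635972 CpGs were unmethylated, 70525 intermediate and 332278 methylated.

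The unmethylated class sat close to 0 and the methylated class well short of 100%. CpGs under 5% made up 57.4% ± 0.0503 (SD, n = 3) of the members. No methylated read at all was seen at 43.4%, 43.5% and 45.4% of CpGs in libraries 1 to 3. At the median depth of an unmethylated CpG, a count of 0 allows a level of up to 2.27%, 2.19% and 2.46%, so a zero is a limit rather than a level. Every read was methylated at only 4.98%, 4.23% and 3.59% of CpGs, and the mean level inside the methylated class was 94.3%, 94.2% and 94.0%. The shares at exactly 0 and at exactly 100% moved with the library more than the shares of the 3 classes did. Both depend on depth, which also differed. The median was 132, 137 and 122 reads for unmethylated CpGs and 66, 72 and 75 for methylated ones. The part of depth in these shifts was not tested.

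**Figure D1:**
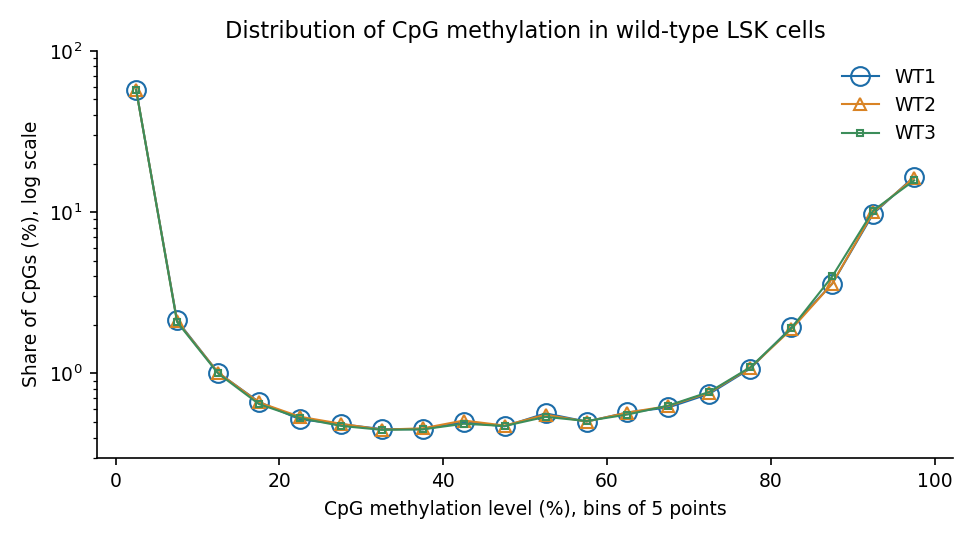
Share of the 1038775 member CpGs (y axis, percent, log scale) in bins of 5 points of methylation level (x axis, percent), 1 line and marker per wild-type library. The 3 curves lie on each other, with 57.4% of CpGs under 5% and a rise again towards 100%.

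CpG density separated the 2 extremes. Each CpG was placed in a tile of 1000 bp, and tiles were grouped by how many member CpGs they hold. CpGs alone or in pairs in their tile had a mean level of 82.5% ± 0.130 (SD, n = 3), in 58163 tiles. The level was 79.6% in tiles of 3 to 4 CpGs, 68.4% in tiles of 5 to 9 and 28.5% ± 0.0343 (SD, n = 3) in tiles of 10 to 19. It was 6.13% in tiles of 20 to 29 CpGs and 2.53% in tiles of 30 to 49. In the 3318 tiles of 50 or more CpGs, which hold 21.9% of all members, it was 1.16% ± 0.0246 (SD, n = 3). The drop fell mostly between 5 and 29 CpGs per tile, and each step was far larger than the spread between libraries. The share of intermediate CpGs fell along the same order, from 14.0% in tiles of 1 to 2 CpGs to 0.809% in tiles of 50 or more. Density here counts covered CpGs, so it also holds the spacing of MspI sites.

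Gene starts were described through their promoter windows, 250 bases before to 50 after the start of a RefSeq transcript. A window was placed on the mm9 positions by the exact spacing of its CGs, and only where at least 8 of its CGs were measured. This placed 7276 of 31396 autosomal windows (23.2%), for 6509 genes. The placed windows had a median of 28 CGs against 7 in the whole table, so what follows describes CpG-rich promoters only. Each gene was classed by 1 window, the placed one with most measured CpGs, so other starts of the gene can differ. Of the 6509 genes, 6415 (98.6%) had an unmethylated window, 55 (0.845%) an intermediate one and 39 (0.599%) a methylated one. The median level of the unmethylated windows was 0.104%.

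Of the 11 stem cell factors listed, 3 were placed, and all 3 were unmethylated, as were 98.6% of all placed genes, so nothing particular to the list is read from this. Gata2, a zinc finger factor of stem cells, had 2 windows: that at chr6:88148408-88148707 was at 0%, 0.157% and 0% in libraries 1 to 3, and that at chr6:88143635-88143934 was at 0.385%, 0.843% and 0.491%. Myb, a factor that progenitors need to divide, was at 0%, 0% and 1.04%. The last came from 3 methylated counts among 297, summed over 8 CpGs at a median depth of 37 reads. Runx1 is given above. Of 8 genes for LSK surface proteins, Flt3 alone was placed, the receptor that marks multipotent progenitors, with 0.119%, 0.0358% and 0%. None of the 9 genes of mature blood cells was placed.

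The genes placed from the lists of other tissues and of all cells were also unmethylated, again beside 98.6% of all placed genes. Pax6, a factor of eye and brain and the single gene placed of 6 listed for tissues other than blood, was at 2.34%, 1.65% and 2.92%. Its levels were above those of the stem cell factors in every library, while still far under 20%. Among genes used by all cells, Eef1a1, a factor of protein synthesis, showed no methylated read. Its counts, summed over 9 CpGs, were 170, 199 and 511 by library. Taken as independent, they allow up to 1.76%, 1.51% and 0.587%. A read over several CpGs is counted once for each, and the median depth was 19, 20 and 69 reads per CpG, so the real limits are higher. Tbp, the TATA box binding protein, was at 0%, 0.0726% and 0%. Intervals of this kind cover counting error only, because the reads carry no molecular identifiers.

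Imprinted genes fell into more than 1 class. The window of Grb10, a growth inhibitor whose start differs between tissues, was at 0.465%, 0.511% and 0.355%, over 42 measured CpGs. Plagl1 was intermediate, as given above, and so was the overlapping window of Hymai, a noncoding RNA from the same imprinted start, with 30.4%, 33.0% and 34.9%. These 2 windows share measured CpGs. Outside the list and named after its values were seen, Igf2r, the receptor that removes the growth factor Igf2, was at 36.4%, 33.0% and 33.6% (chr17:12962523-12962822). Zrsr1, an imprinted gene inside an intron of Commd1, was at 39.6%, 45.4% and 38.5%, and the window of Commd1 itself was at 40.9%, 33.5% and 39.1%. In each of these the 3 libraries lay well inside the intermediate class. Mcts2, an imprinted gene that arose as an RNA copy, was methylated, with 93.3%, 92.8% and 91.3%.

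The 39 methylated promoters are ordered here by how many CpGs were measured in the window, and the first 5 are named. They are not 39 separate places, since some windows overlap, such as those of Btbd18 and Ctnnd1, which gave the same values. 4933428G20Rik had 31 CpGs at 93.4%, 95.7% and 93.7%. Ddx4 had 27 and is given above. Dmrtb1, a factor of sperm precursor cells, had 25 CpGs at 93.2%, 94.4% and 94.1%. Hormad1, a protein of the chromosome axis in meiosis, had 21 CpGs at 93.7%, 93.1% and 93.4%. Hsf5, a heat shock factor family member of testis, had 21 CpGs at 95.6%, 95.3% and 93.7%. The spread between libraries stayed under 1.25 points SD in these 5, against a level more than 90 points above the median unmethylated promoter.

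Further methylated windows, named after their values were seen, belong to genes known from germ cells and from body tissues. Dazl, an RNA-binding protein of germ cells, had a mean of 94.8% ± 0.406 (SD, n = 3) over 8 CpGs. Sycp1, a part of the synaptonemal complex that pairs chromosomes in meiosis, had 83.6% ± 0.789 (SD, n = 3). Mael and Asz1, which act in the silencing of transposons in germ cells, had 83.2% ± 2.95 and 95.9% ± 0.710 (SD, n = 3). Lep, which encodes the fat cell hormone leptin, had 88.9% ± 1.08 (SD, n = 3). Mamstr, a cofactor of muscle genes, was at 83.2%, 90.2% and 91.4%, the widest spread of the 39, with a median of 18.5, 37.5 and 47.5 reads per CpG.

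The 55 intermediate windows spread over the whole range between the limits. Their median level was 36.9%, and their median SD between libraries was 2.77 points, against 0.816 for the methylated and 0.0743 for the unmethylated windows. By number of measured CpGs the first was Tmem267, with 37 CpGs at 39.7%, 46.2% and 39.0%. The window of 3110070M22Rik overlaps it on the other strand. The Tmem267 window had a median of 852, 580 and 515 reads per CpG, against 105, 110 and 103 for the median member CpG. The part of this depth in its level was not tested. Sox30, a factor of sperm development, was at 33.8%, 34.8% and 33.4%, and Boll, a germ cell RNA-binding protein related to Dazl, was at 59.4%, 60.1% and 62.0%. Both were stable to within 3 points. Hoxa5, a homeobox factor of body patterning, was less so, with 56.8%, 67.4% and 57.8%. The largest SD among named protein genes was that of Henmt1, which modifies small RNAs of germ cells, with 56.8%, 57.8% and 45.7% over 17 CpGs. Library 3 was the low one in Henmt1, and library 2 the high one in Hoxa5.

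Around the 6415 unmethylated promoters, low methylation reached well past the window to either side of the start. The mean level was 0.350% in the 250 bp before the start and 0.379% in the 250 bp after it. It was 5.31% from 750 to 1000 bp upstream and 4.49% at the same distance downstream. Upstream it rose to 22.0% at 1500 to 2000 bp and levelled near 34.9% at 5 to 10 kb. Downstream, into the gene, it rose further, to 25.6% at 1500 to 2000 bp and 46.6% at 3 to 5 kb. From 500 to 1000 bp the upstream side was the higher one in every library, with 2.07% against 1.65% at 500 to 750 bp. Both sides were at 11.5% at 1000 to 1500 bp, and beyond 1500 bp the downstream side was higher in every bin and every library. Upstream CpGs can belong to a neighbouring gene's own promoter, and this was not separated.

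**Figure D2:**
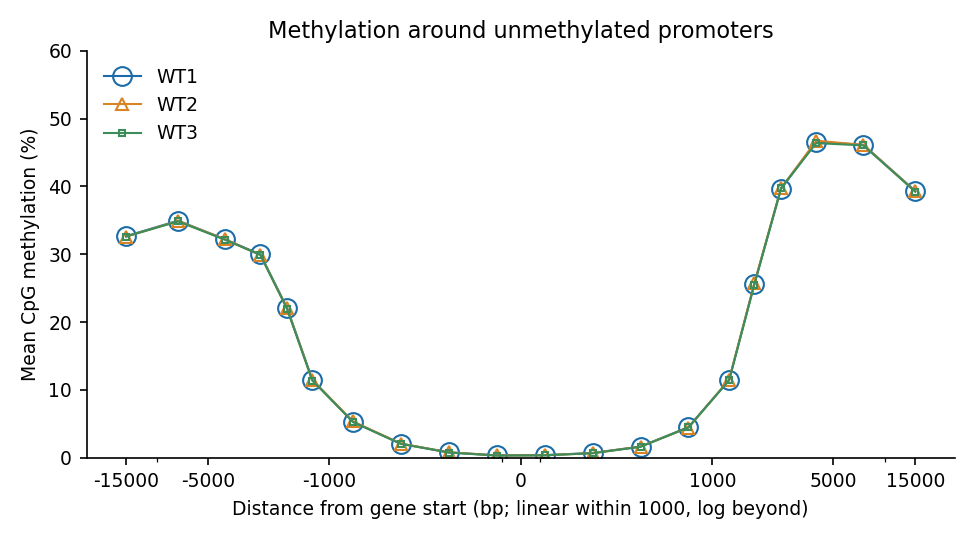
Mean CpG methylation (y axis, percent) by distance from the start of the 6415 genes with an unmethylated window (x axis, bp, negative upstream, linear within 1000 bp and log beyond), 1 line per wild-type library. The level is under 0.5% next to the start, near 5% at 875 bp and higher downstream than upstream beyond 2000 bp.

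The 3 libraries agreed closely at single CpGs. Pearson's r over the 1038775 CpGs was 0.994 for libraries 1 and 2, 0.995 for 1 and 3, and 0.995 for 2 and 3. The 2 extremes carry most of this: among intermediate CpGs r was 0.831, 0.840 and 0.846. By rank, where the many CpGs near 0 are ordered by a few reads, rho was 0.904, 0.906 and 0.909. These correlations describe CpGs that are linked to their neighbours and carry no p. The mean absolute difference was 2.32, 2.34 and 2.27 points for the 3 pairs. It was 0.744, 0.752 and 0.717 points for unmethylated CpGs, 8.41, 8.33 and 8.18 for intermediate ones and 4.04, 4.10 and 3.98 for methylated ones.

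Class changes between libraries were almost all steps across a single limit. The 3 libraries put 993853 CpGs (95.7%) in the same class. This held for 99.0% of unmethylated, 93.7% of methylated and 75.2% of intermediate CpGs. Only 5 CpGs were under 20% in 1 library and over 80% in another. Differences over 50 points were seen at 63 CpGs between libraries 1 and 2, at 29 between 1 and 3 and at 25 between 2 and 3.

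The spread between libraries was wider than read sampling alone gives. For CpGs of 40 to 60% the SD between the libraries was 7.95 points, and binomial sampling of their reads would give 6.29, a variance ratio of 1.60. The ratio was 1.34 for CpGs under 5% and 1.20 for those over 95%. With depth the spread narrowed and the ratio grew. At 200 or more reads in every library, CpGs of 40 to 60% had an SD of 5.07 points against 2.98 from sampling, a ratio of 2.90, and those of 60 to 80% had 5.06 against 2.73, a ratio of 3.44. The part of the SD beyond sampling, at 40 to 60%, was 5.56 points at 10 to 49 reads and 4.10 points at 200 or more. It was also lower at 200 or more reads in the other classes up to 95%. Between these depths it went from 3.25 to 1.93 points at 5 to 20% and from 2.998 to 1.79 at 80 to 95%. Under 5% it went from 0.470 to 0.323 points. At 95 to 100% it did not fall, with 0.914 points at 10 to 49 reads, 1.26 at 50 to 99 and 0.950 at 200 or more. PCR copies count as reads here, and their part in this excess was not tested.

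**Figure D3:**
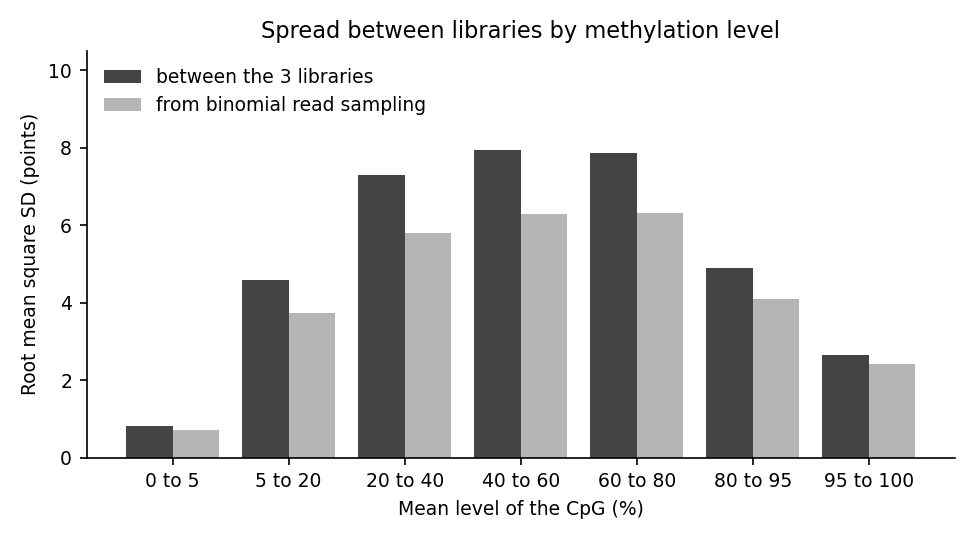
Root mean square SD between the 3 wild-type libraries (dark bars) and the SD that binomial sampling of the reads gives (light bars), in percentage points (y axis), by mean level of the CpG (x axis, percent). The dark bar is higher in every class, with 7.95 against 6.29 points at 40 to 60%.

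Nearby CpGs had nearly the same level, and the likeness faded over a few kilobases. Distance bins that start at 100 bp or more do not hold their upper bound, and shorter ones do. Pearson's r between the levels of 2 CpGs of the same library averaged 0.988 at 2 to 4 bp and 0.965 at 100 to 150 bp. It was 0.918 at 200 to 300 bp, 0.868 ± 0.00123 (SD, n = 3) at 300 to 400 bp and 0.441 ± 0.000786 (SD, n = 3) at 1000 to 2000 bp. By 5 to 10 kb it was 0.0502, and from 10 kb to 1 Mb it stayed between 0.00323 and 0.0248. The level of r = 0.5 was crossed at 1204, 1201 and 1207 bp in libraries 1, 2 and 3. Crossing distances are interpolated on the log of distance between the middles of neighbouring bins. For r = 0.5 the bins are 800 to 1000 and 1000 to 2000 bp, and the SD between libraries does not cover their width. By Spearman's rho, which gives weight to the order of the many CpGs near 0, the similarity at 300 to 400 bp was 0.487 and the 0.5 level was crossed at 319 bp ± 65.0 (SD, n = 3). The curve of Pearson's r passed r = 0.9 at 277 bp ± 2.76 and r = 0.1 at 5020 bp ± 24.2 (SD, n = 3). Pairs within 1 read share molecules, so the same curve was drawn with the 2 CpGs taken from different libraries. At 2 to 4 bp, where such sharing can occur, r was then 0.986, against 0.988 within a library. The curve across libraries crossed r = 0.5 at 1204 bp ± 1.54 (SD over 3 pairs of libraries), and r at 300 to 400 bp was 0.868. Both distances exceed the length of a read, so these 2 values do not test the sharing of reads.

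In terms of classes and over all pairs, the unmethylated state reached further than the methylated one. With a CpG under 20%, the share of partners also under 20% was 99.6% at 2 to 4 bp, 99.1% at 300 to 400 bp and 89.3% at 1000 to 2000 bp, against 62.4% at 500 kb to 1 Mb. With a CpG over 80%, the share of partners over 80% was 95.5%, 83.2% and 48.8% at the same distances, against 31.5% far away. Intermediate CpGs had intermediate partners in 69.9% of pairs at 2 to 4 bp, 35.9% at 300 to 400 bp and 13.1% at 1000 to 2000 bp. At that last distance 70.4% of their partners were unmethylated. Far pairs return to the shares of the classes among covered CpGs, so each near share is read against its own far value. CpG density was not separated here. With both CpGs in tiles of 20 or more, 93.0% of pairs were unmethylated on both sides at 1000 to 2000 bp. At 500 kb to 1 Mb it was 92.4%. Pairs methylated on both sides were 0.388% and 0.0683% there.

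Among intermediate CpGs alone, r was lower than over all CpGs at distances up to 300 to 400 bp. Here both CpGs of a pair are held to 1 class, which narrows the range of levels and by itself lowers r. The lower r therefore does not show that their levels were less alike. CpGs with opposite readings on the 2 strands, described below, were not left out. With the 2 CpGs in different libraries, r was 0.571 at 2 to 4 bp, 0.342 at 100 to 150 bp and 0.226 at 300 to 400 bp. It then went up again, to 0.369 at 2000 to 3000 bp. A single window of 20 kb on chromosome 17 carried that return: without it r was 0.180 at 300 to 400 bp, 0.0649 at 800 to 1000 bp and 0.0904 at 2000 to 3000 bp. The covered part of the window, chr17:39980004-39985744, holds 475 CpGs, of which 199 are intermediate. Its mean level was 19.8%, 18.9% and 21.5%. Its median depth was 5164, 5653 and 7313 reads per CpG, and its reads were 3.61%, 3.69% and 3.02% of all member reads. The part of this depth in the return of r was not tested.

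The correlation at a given distance differed with density. Where both CpGs lay in tiles of 1 to 4 members, r was 0.930 at 2 to 4 bp, 0.592 at 300 to 400 bp and 0.247 at 1000 to 2000 bp. In tiles of 5 to 19 members it was 0.986, 0.896 and 0.581. In tiles of 20 or more it was 0.966, 0.800 and 0.353, with 97.4% of the pairs at 300 to 400 bp unmethylated on both sides. The middle group, in which unmethylated and methylated pairs are both common, kept the highest r at every one of these distances. A correlation falls where 1 class dominates, so the 3 values do not rank the groups by likeness of their levels.

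**Figure D4:**
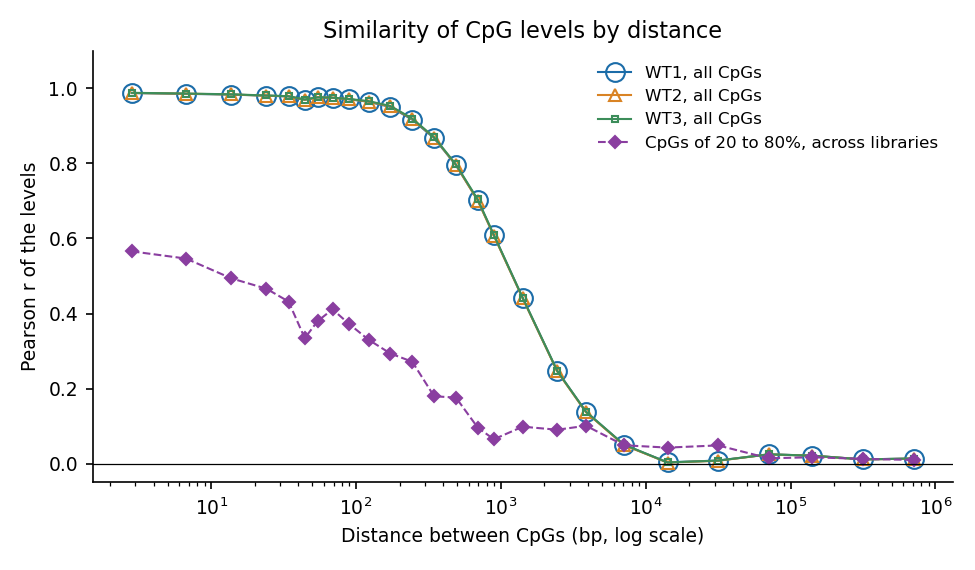
Pearson's r of the levels of 2 CpGs (y axis) by the distance between them (x axis, bp, log scale), for all CpGs within each wild-type library (3 lines) and for CpGs of 20 to 80% across libraries, drawn without the chromosome 17 window (diamonds). The 3 libraries overlap and cross r = 0.5 near 1204 bp, and the intermediate CpGs start at a lower r; both curves dip between 40 and 49 bp.

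The curves dipped at 40 to 49 bp, where r was 0.970, below the 0.976 at 50 to 59 bp. Base by base, r was 0.978 at 45 bp, 0.932 at 46 bp, 0.958 at 48 bp, 0.964 at 50 bp and 0.980 at 51 bp. The dip lay in 1 order of reading. Pairs on the same strand were sorted by which CpG comes first in the direction in which that strand is read. At 46 to 50 bp, the first CpG was over 80% in 27656 pairs, and the second was under 20% in 6837 of these (24.7%). In the reverse order, a first CpG under 20% and a second over 80%, there were 77 pairs. At 2 to 45 bp these counts were 6149 (2.03% of the methylated first CpGs) and 583, and at 51 to 100 bp they were 888 (1.39%) and 369.

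The pattern grew steeply at 46 bp and fell back at 51 bp, and all 3 libraries showed it. The same order was already the more frequent at 2 to 45 bp, with 6149 pairs against 583. The share of unmethylated second CpGs was 2.43% at 45 bp, 15.5% at 46 bp, 28.8% at 48 bp, 25.7% at 50 bp and 0.524% at 51 bp. The mean level of the second CpG at 46 to 50 bp was 66.7%, 66.6% and 67.7% in libraries 1 to 3, against 90.5%, 90.4% and 90.3% at 2 to 45 bp. The low entries numbered 6774, and the other strand of the same CpG was measured for 5992 of them. There the median level was 95.9%, against 0.838% on the low strand, and 94.6% were over 80%. The 2 strands of these CpGs thus gave opposite readings.

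These distances match the read length, which was 50 bases per the labels' protocols. By the same protocols the MspI ends were repaired before ligation, a step in which cytosines are added to the end; its part in these values was not tested. Classes come from the level merged over strands, so a CpG with opposite strands falls in the intermediate class unless the strands' depths differ greatly. The shares that follow come in large part from this definition and do not compare the classes. Low entries with no other strand measured are not counted in them. Of 17956 intermediate CpGs measured on both strands, 7173 (39.9%) differed by over 50 points between the strands, and 5860 of those had a low entry 46 to 50 bases past a methylated one. Among unmethylated CpGs with both strands 97 (0.0466%) differed that much, and among methylated ones 31 (0.0699%). Leaving out all entries 46 to 50 bases past another entry of their strand, methylated or not, kept 934111 CpGs. The mean level was then 37.1% and the r at 300 to 400 bp 0.881. The share of intermediate CpGs was 6.82%, against 7.11% with all entries. The share under 20% fell as well, from 61.2% to 58.4%. The shares refer to different sets of CpGs, so they do not give how many intermediate CpGs were left out.

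**Figure D5:**
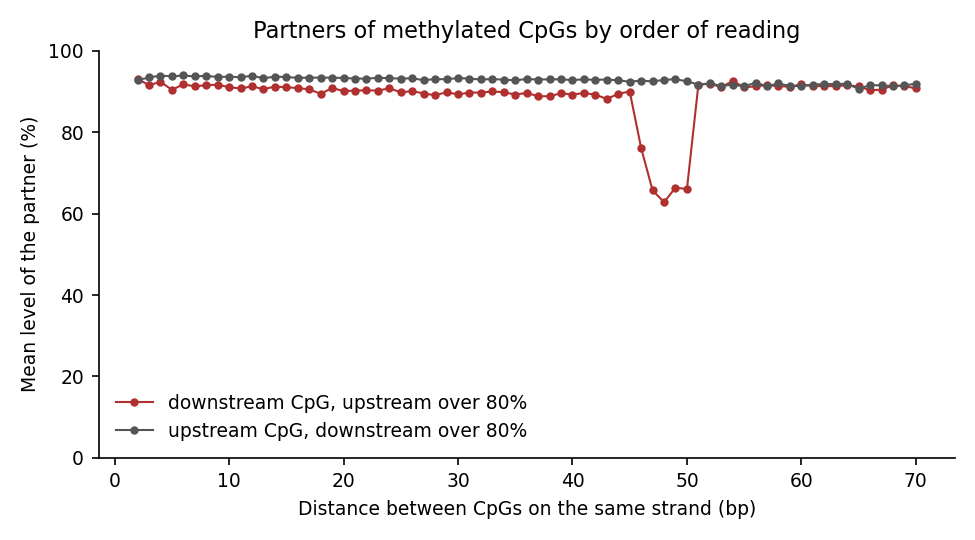
Mean level of the partner of a CpG over 80% (y axis, percent) by distance on the same strand (x axis, bp), for partners read after it (red) and before it (grey), over the mean of the 3 wild-type libraries. The red points fall to 62.8% at 48 bp and return to 91.6% at 51 bp, while the grey points stay above 90%.

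Consecutive CpGs of 1 class, with gaps of at most 500 bp, formed runs. A run also ends at any longer gap without a covered CpG, so its length depends on coverage. Of 129216 series of CpGs between such gaps, 17851 held 10 or more. Unmethylated CpGs lay in 29652 runs with a median of 7 CpGs, and 92.6% of them were in runs of 10 or more. Methylated CpGs lay in 107543 shorter runs with a median of 2, and 10.7% were in runs of 10 or more. They made up 78.9% of the members in tiles of 1 to 2 CpGs and 0.368% in tiles of 50 or more. Their short runs therefore do not give the size of methylated regions. Intermediate CpGs lay in 39446 short runs, of which 62.7% were a single CpG. These single CpGs were 35.1% of the intermediate CpGs, against 1.01% of the unmethylated and 7.98% of the methylated ones, and 6.92% of intermediate CpGs lay in the 315 runs of 10 or more. Unmethylated runs were also the longest in bases, up to 3900 bp, with 230 over 2000 bp. How many of the single intermediate CpGs had opposite readings on the 2 strands, as described above, was not tested.

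The unmethylated runs with most CpGs were chr15:96115334-96119233 with 293 CpGs at a mean of 0.0757%, chr13:108678742-108682138 with 274 at 0.130% and chr4:8617161-8619350 with 260 at 0.214%. The chromosome 13 run spans the promoter of Zswim6, a zinc finger gene, whose window was at 0.0718%, 0.0275% and 0.309% in libraries 1 to 3. No placed promoter lay within 5 kb of the other 2 runs, which says only that none could be placed there.

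The intermediate runs with most CpGs held a level near the middle in all 3 libraries. The run chr8:91151119-91151739 had 82 CpGs at 48.3%, 50.7% and 45.2%. The run chr7:114353182-114353706 had 81 CpGs at 44.5%, 45.6% and 45.7%, and began 174 bp past the window of Rbmxl2, a testis gene for an RNA-binding protein, which was at 48.8%, 41.7% and 43.0%. The run chr7:112910665-112911287 had 61 CpGs at 47.4%, 46.1% and 43.1%. In each the libraries differed by 6 points or less, so these regions were intermediate in every library rather than mixed between libraries.

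The methylated runs with most CpGs were CpG-dense and highly methylated throughout. The run chr5:93370887-93371760 had 84 CpGs at 96.0%, 95.5% and 95.7%. The run chr10:79439595-79440698 had 72 CpGs at 94.8%, 96.4% and 96.0%. The run chr10:80616248-80617149 had 64 CpGs at 95.0%, 95.4% and 94.9%. No placed promoter lay within 5 kb of them.

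Most measured stretches held a single class of CpG. A stretch is a series of CpGs with gaps of at most 500 bp, and 17851 stretches held 10 or more. Of these 11061 (62.0%) were unmethylated at every CpG, 2132 (11.9%) methylated at every CpG and 77 (0.431%) intermediate at every CpG. The remaining 4581 (25.7%) held more than 1 class. Of these, 989 (5.54% of all) held both unmethylated and methylated CpGs, with or without intermediate ones, and 3592 (20.1%) held intermediate CpGs beside those of 1 extreme only. Direct borders, with at least 3 unmethylated CpGs on 1 side and 3 methylated on the other, numbered 193. The distance across them had a median of 373 bp (quartiles 235 and 454), and 99 of them (51.3%) had no intermediate CpG between. The gap rule caps distances without a CpG at 500 bp.

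Single CpGs that broke with both neighbours were rare. Of 93907 CpGs between 2 methylated neighbours within 50 bp, 83 (0.0884%) were unmethylated and 3063 (3.26%) intermediate. Of 529278 CpGs between 2 unmethylated neighbours, 12 (0.00227%) were methylated and 1843 (0.348%) intermediate. An unmethylated CpG inside methylated surroundings was thus the more frequent of the 2 kinds, per CpG looked at. How many of the former lie near a read's end was not tested.

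The widest differences between wild-type libraries were described at CpGs with at least 100 reads in every library. Of 426965 such CpGs the median range over the 3 libraries was 0.592 points and the 99th percentile 14.1, with 186 over 25 points and 6 over 50. The 5 with the largest range all lay in the chromosome 17 window. The first, at position 39981908, was at 50.6%, 11.6% and 81.3% over 156, 199 and 134 reads, and the next, at 39981886, was at 37.9%, 12.2% and 74.5%. At positions 39981900, 39981919 and 39981892 library 2 was also the lowest and library 3 the highest. These 5 CpGs lie between positions 39981886 and 39981919, were measured on 1 strand and had far fewer reads than the window's median.

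Over tiles of 1000 bp with at least 5 member CpGs and at least 100 reads in every library, summed over the tile's CpGs, 47273 in all, the median range was 1.22 points and the 99th percentile 11.4. Ranges over 10 points were seen in 758 tiles (1.60%) and over 20 points in 36. The tile chr9:121847001-121848000 was at 63.5%, 27.2% and 59.6% over 7 CpGs, and chr2:24950001-24951000 at 58.7%, 22.5% and 55.5% over 6. In both, library 2 stood apart below the other 2. The tile chr3:54568001-54569000 was at 90.03%, 59.9% and 75.3% over 6 CpGs, again with library 2 lowest. No placed promoter lay within 5 kb of these 3 tiles.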

How the data were processed

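DNA methylation was measured by ERRBS in 3 libraries of wild-type LSK cells. The submitters' processing notes name Bismark (version not given in the sources used here) and the mouse build mm9, also called NCBIM37. Reads were 50 bases, from fragments of 150 to 400 bp, per the labels' protocols. The authors deposited, per the file headers, the coverage count of each CpG cytosine by strand and the percent of it read as C and as T; the lowest coverage is 10. Percent times coverage came within 0.01 of a whole read for 99.97% of entries, and read counts were recovered by rounding. Entries with at least 10 reads in all 3 tables were merged over strands by adding reads (reverse strand position minus 1). Levels were averaged over CpGs and given per library; no test was run, since the libraries form 1 group. Scripts used Python 3.11.15, numpy 2.4.6, pandas 2.3.3 and matplotlib 3.10.9, and were tested on simulated data.

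No mm9 annotation was used. Promoter sequences from RefSeq (GRCm38.p6) were placed on the measured mm9 CpGs where all measured CGs in the window, at least 8 with 5 or more consecutive, matched the spacing of its CGs at a single place; no coordinates were converted. Of 7283 placements 7 were removed because they broke the order of genes, and 0 of 5624 neighbouring pairs placed by 12 or more CpGs were out of order. Reversed spacings, which should match nowhere, placed 18 windows. This method was chosen after the data were seen. Of the listed genes those placed were named. Runs, tiles and CpGs were named by rank (3 runs with most CpGs per class, 5 CpGs and 3 tiles with the largest range); other genes were picked with their values known. The members and gene lists were chosen with earlier results of these data known. Alternatives were a coverage minimum of 20, the highest 0.1% of coverage left out, merging strands before the coverage minimum, CpGs with both strands, thinning to 10 reads, each library left out, pooled reads, limits of 10 and 90%, Spearman's rho, pairs across libraries and, added after the data were seen, entries near a read's end left out.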

Additional observations from a re-analysis of the deposited data

How the results depend on the processing

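The values came from covered CpGs only, and several settings moved them more than leaving out any library did. Some of these settings changed the set of CpGs, and others changed the measure, the limits or the reads used. Leaving out library 1, 2 or 3 also changed the set, to 1071775, 1047551 and 1040134 CpGs. Of 83 recomputed values 31 stayed within 1 SD of the spread between libraries, which is small here, and 52 moved. In order, the values are the mean level, the shares under 20%, over 80% and from 20 to 80%, the agreement between libraries, r at 300 to 400 bp, r at 1000 to 2000 bp and the distance of r = 0.5. With a coverage minimum of 20 they were 32.3%, 63.4%, 29.8%, 6.77%, 0.996, 0.866, 0.430 and 1166 bp over 953235 CpGs. With both strands covered they were 19.3%, 76.9%, 16.4%, 6.68%, 0.997, 0.857, 0.382 and 1126 bp over 270300 CpGs. Thinned to 10 reads, where the mean level stayed, they were 60.4%, 28.3%, 11.3%, 0.978, 0.832, 0.430 and 1155 bp from the share under 20% on. Without entries near a read's end they were 37.1%, 58.4%, 34.8%, 6.82%, 0.994, 0.881, 0.459 and 1263 bp. Limits of 10 and 90% gave shares of 59.5%, 25.9% and 14.5%. Pooling reads gave a mean level of 24.5% (23.6%, 23.7% and 26.2%), since deep CpGs weigh more. By Spearman's rho the agreement was 0.906, the similarities 0.487 and 0.334 and the distance 319 bp. Leaving out the highest 0.1% of coverage or merging strands first left all of these near the values reported. Without each library in turn the ranges were 34.3% to 34.9%, 60.4% to 61.2%, 31.7% to 32.3%, 7.13% to 7.28%, 0.9943 to 0.9944, 0.868 to 0.871, 0.441 to 0.444 and 1203 to 1211 bp, with the largest shift without library 1 for all but the agreement, where it was without library 3. No paired analysis was possible because the libraries form 1 group. The cause of these shifts was not tested.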

Other observations

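Mean levels by chromosome ran from 30.03% on chromosome 19 to 36.4% on chromosome 10. The distance at which r fell to 0.5 was shortest on chromosome 2, at 908 bp, and longest on chromosome 10, at 1485 bp, with a median of 1159 bp over the 19 autosomes.

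At a scale of 1 Mb, 2223 windows with at least 50 member CpGs ranged from 6.81% to 94.4%, with a median of 36.5% and quartiles of 27.8% and 51.9%. The median range between the 3 libraries was 0.335 points. Across windows, Pearson's r between the level and the share of CpGs in tiles of 20 or more was -0.91. This is a description across neighbouring windows of the same libraries, and the 2 measures share their CpGs. The lowest window, chr11:23000001-24000000, was at 6.71%, 6.83% and 6.90% over 576 CpGs, of which 74.8% lay in such dense tiles. Among the highest, chr1:149000001-150000000 was at 94.8%, 94.5% and 93.9% over 50 CpGs, none of them in a dense tile.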
